A study of Homo sapiens with 4 samples.

Results

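The genes described here are 10 genes for subunits of the 2 classical Polycomb complexes, chosen by name: EZH1, EZH2, SUZ12 and EED of Polycomb repressive complex 2 (PRC2), and RING1, RNF2, BMI1, CBX2, CBX7 and CBX8 of Polycomb repressive complex 1 (PRC1). They are 10 of 58870 genes listed in each table, and all 10 were among the 16749 genes with enough counts to be tested. RNA was taken from BJ cells, an established line of human foreskin fibroblasts with no genetic change named in the labels. In 2 control libraries, which the labels call young, the cells had received DMSO, the solvent. In the other 2 libraries, which the labels call aged, they had received 250 nM of a compound written only as Dox in the labels, for 24 hours, and were then kept for 10 days to become senescent. The same 24 hours and 10 days are recorded for the DMSO libraries. The model is thus 1 cell line at 1 dose and 1 time, with no untreated or replicatively aged cells. The comparison asks which Polycomb transcripts differ between the Dox-treated and the DMSO-treated cells.

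Polycomb complexes keep developmental and cell cycle genes silent through marks on histones. PRC2 places methyl groups on lysine 27 of histone H3 through either of its catalytic subunits, EZH2 or EZH1, and needs SUZ12 and EED for this activity. PRC1 attaches ubiquitin to histone H2A through RING1 or RNF2. In its canonical form PRC1 also holds BMI1 or the related PCGF2, and a CBX protein that binds the methylated H3. In fibroblasts the system is best known for silencing the INK4 locus, which encodes the cell cycle inhibitors p16 and p15, and EZH2 is known as a gene of dividing cells whereas EZH1 is also made in resting ones.

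The upstream sequences of the catalytic pair and of SUZ12 are shown because EZH2 fell while EZH1 and SUZ12 did not pass the test. RefSeq promoter sequences (GRCh38.p14) were matched for 8 of the 10 genes and were missing for CBX2 and CBX8. Each sequence below is the 250 bases before a transcription start, 5′ to 3′ on the gene's own strand. Capitals mark 3 kinds of motif on either strand: the CCAAT box, the letters TTTGAA of the cell cycle homology region, and the E2F-type octamers TTTCCCGC, TTTCGCGC, TTTGCCGC and TTTGGCGC.
EZH2, upstream start, chr7:148884292-148884541, minus strand: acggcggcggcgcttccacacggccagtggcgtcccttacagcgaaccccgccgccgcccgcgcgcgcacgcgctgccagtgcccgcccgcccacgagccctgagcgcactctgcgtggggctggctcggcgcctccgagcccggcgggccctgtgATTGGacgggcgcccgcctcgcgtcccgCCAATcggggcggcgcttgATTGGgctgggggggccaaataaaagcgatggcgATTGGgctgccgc
EZH1, chr17:42745041-42745290, minus strand: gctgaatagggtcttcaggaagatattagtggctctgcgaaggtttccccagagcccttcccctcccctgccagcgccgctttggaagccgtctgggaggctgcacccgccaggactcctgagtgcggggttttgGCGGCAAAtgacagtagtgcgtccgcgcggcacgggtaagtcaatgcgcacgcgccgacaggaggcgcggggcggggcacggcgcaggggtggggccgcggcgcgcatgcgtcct
SUZ12, chr17:31936757-31937006, plus strand: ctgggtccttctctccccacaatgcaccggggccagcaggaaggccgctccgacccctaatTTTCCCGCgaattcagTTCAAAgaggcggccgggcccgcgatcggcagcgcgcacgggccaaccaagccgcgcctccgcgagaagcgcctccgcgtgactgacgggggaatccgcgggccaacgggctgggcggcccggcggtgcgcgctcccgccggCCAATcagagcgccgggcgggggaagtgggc

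The EZH2 sequence held 4 CCAAT boxes, 94, 66, 47 and 13 bases before the start, the second on the gene's own strand and the others on the opposite one. At least 4 such boxes occurred in 0.874% of 35116 RefSeq promoter windows of this length. The CCAAT box was searched after the letters of this sequence had been seen, so its count is a description. A second RefSeq start of EZH2 (chr7:148883486-148883735) held none of the 3 motifs. An E2F-type octamer stood in 2 of the 8 matched genes, TTTGCCGC on the opposite strand 115 bases before the EZH1 start and TTTCCCGC 189 bases before the SUZ12 start, against 2.79% of all windows. SUZ12 was also the single gene of the 8 with TTTGAA (13.3% of all windows). A CCAAT box stood in 4 of the 8 (32.0% of all windows), namely EZH2, SUZ12, EED and CBX7. No motif of the 3 kinds was found in the windows of RING1, RNF2 and BMI1. These counts are of genes, some with more than 1 window, whereas the background shares are of windows. GC was 67.6% and 72.8% in the EZH1 and SUZ12 windows, beside a median of 58% over all windows. The part of base composition in these matches was not tested. A match of letters does not show that a factor binds there.

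The Dox libraries stood apart from each other. Over 16717 genes the log2 ratio of Dox replicate 1 to replicate 2 had a Spearman rho of -0.598 with transcript GC content, against -0.0239 for the DMSO pair (a description across genes, which share their libraries). What changed without one of them is given with some of the genes and in the counts further below. A fit without a Dox library takes its spread from the DMSO pair. That pair was far tighter, with a chi-square per degree of freedom of 2.40 against 60.5 in Dox. Calls from such a fit therefore leave out the spread between the Dox libraries.

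Of the 10 subunit genes, 3 fell in the Dox libraries (EZH2, CBX2 and BMI1), none rose, and 7 did not pass the test (edgeR's quasi-likelihood test, Benjamini-Hochberg adjusted over all 16749 genes, threshold 0.05). Over all genes tested 13.8% were called lower and 16.5% higher. At an unadjusted p under 0.05, 5 of the 10 were lower (RING1 and RNF2 in addition) and none was higher, beside 20.1% and 22.5% of all genes. DESeq2 called 2 lower and none higher, beside 11.0% and 13.7%. On log2(TPM + 1) and log2(TPM + 0.1), tested with limma, none of the 10 was called, beside 1.18% and 1.18% of all genes lower and 3.56% and 3.80% higher. Their median log2 fold change was -0.32, beside -0.00 for all genes tested. The DMSO and Dox values did not overlap for any of the 10, with Dox above in 4 and below in 6, but with 2 libraries a group this held for 69.1% of all genes. Levels are given as CPM, the count of a gene relative to the TMM-scaled total of its library. RNA of whole cultures was measured, so fewer cells of a type and less RNA per cell cannot be told apart.

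**Figure D1:**
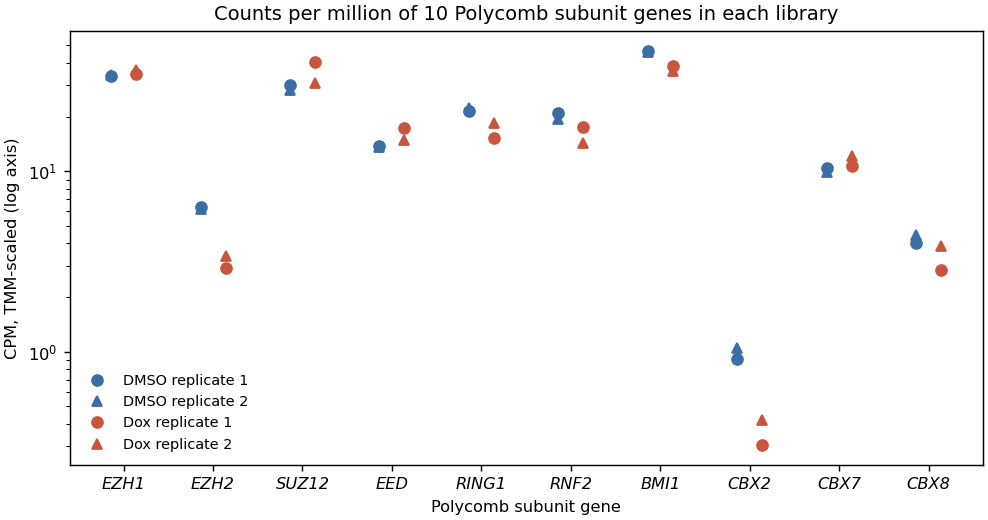
TMM-scaled CPM (log axis) of the 10 subunit genes, with 1 point for each library, DMSO in blue and Dox in red. EZH2 and CBX2 stand apart between the groups, whereas the points of EZH1 lie between 33.9 and 36.4 CPM in all 4 libraries.

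EZH2, the catalytic subunit linked to dividing cells (chromosome 7, 148807383 to 148884321, minus strand), was at 6.35 and 6.16 CPM in the DMSO libraries and at 2.92 and 3.39 CPM in the Dox libraries. Both Dox values lay well below both DMSO values, and the gap was far wider than that within either pair. The mean was 6.26 ± 0.131 CPM in DMSO and 3.16 ± 0.334 CPM in Dox (SD, n = 2 each). The log2 fold change was -0.98 (SE 0.14, adjusted p = 0.00444). It rested on 265 and 289 counts against 125 and 154. The ratio of the summed counts, scaled for library size, was 0.506, with an exact 95% interval of 0.437 to 0.586 that covers counting error only. Of the 3 falls, this was the only one that passed in each of the 11 other fits on counts, leaving out any 1 library included. On log2(TPM + 1) and log2(TPM + 0.1), where a fold change is that of the value plus the pseudocount, it was -0.23 and -0.58. It did not pass there in limma (adjusted p = 0.661 and 0.76). TPM of EZH2, which adjusts for transcript length and gives every library the same sum, was 0.66 and 0.7 in DMSO and 0.3 and 0.58 in Dox. In the same Dox libraries protein-coding genes took 9.11% and 14.9% of all TPM (10.4% and 10.8% in DMSO), and genes shorter than 400 bases took 90.5% and 84.6% (89.4% and 89.0% in DMSO), so a given TPM share was not of the same total of mRNA. How much this moved the TPM values was not tested.

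EZH1, the other catalytic subunit (chromosome 17, 42700275 to 42745049, minus strand), was at 33.9 and 34.4 CPM in DMSO and at 34.5 and 36.4 CPM in Dox. The 4 values were close together, and the log2 fold change of 0.05 (SE 0.08, adjusted p = 0.623) did not pass the test. It also missed the threshold in all 13 alternatives, with log2 fold changes from 0.01 to 0.27. On the scale of CPM per kilobase of transcript, which allows levels of different genes to be compared, EZH1 exceeded EZH2 by a ratio of 4.55 and 4.76 in the DMSO libraries and of 10.1 and 9.13 in the Dox libraries. EZH2 thus made up 18.0% and 17.4% of the summed EZH1 and EZH2 level in DMSO and 9.04% and 9.87% in Dox. The summed level itself was 14.2 and 14.3 CPM per kilobase in DMSO and 13.0 and 13.8 in Dox, and most of it was EZH1 in every library. For a ratio of this kind with 2 libraries against 2, an exact permutation test cannot give a two-sided p below 0.333, so none is quoted.

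SUZ12, the scaffold of PRC2 (chromosome 17, 31937018 to 32001045, plus strand), was at 30.2 and 28.4 CPM in DMSO and at 40.1 and 31.0 CPM in Dox. The higher Dox value came from replicate 1 alone, and the log2 fold change of 0.28 (SE 0.13, adjusted p = 0.156) did not pass. EED, which binds methylated H3 (chromosome 11, 86244544 to 86278813, plus strand), was at 13.8 and 13.7 CPM in DMSO and at 17.4 and 15.01 CPM in Dox, a log2 fold change of 0.23 (SE 0.10, adjusted p = 0.141). Both genes are poor in GC (38.1% and 38.5% of transcript bases). With offsets that remove each library's trend over GC content, both were called higher (adjusted p = 0.0262 and 0.0272). Their log2 fold changes were then smaller, at 0.24 and 0.20. Without Dox replicate 2 the log2 fold changes of SUZ12 and EED were 0.46 and 0.34. Without Dox replicate 1 they were 0.07 and 0.11. The ratio of SUZ12 to EED in CPM per kilobase was 0.814 and 0.771 in DMSO and 0.861 and 0.769 in Dox, which overlap. SUZ12 shares sequence with the pseudogene SUZ12P1, which held 218 to 262 counts in the 4 libraries beside 1259 to 1717 for SUZ12, so its counts are partly an estimate.

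Among the PRC1 core genes, BMI1, the RING finger partner of the ubiquitin ligases (chromosome 10, 22321211 to 22331484, plus strand), was at 46.5 and 45.6 CPM in DMSO and at 38.3 and 36.0 CPM in Dox. Both pairs were tight and did not overlap. The log2 fold change was -0.31 (SE 0.07, adjusted p = 0.0250). It no longer passed without DMSO replicate 1 or without DMSO replicate 2, where it was -0.31 and -0.33. The read-through COMMD3-BMI1, which shares its exons, held 2.87 to 13.81 counts a library, beside 1635 to 2139 for BMI1. RING1, a ubiquitin ligase (chromosome 6, 33208495 to 33212722, plus strand), was at 21.5 and 22.4 CPM in DMSO and at 15.2 and 18.6 CPM in Dox. RNF2, the other ligase, also known as RING1B (chromosome 1, 185045364 to 185102608, plus strand), was at 21.2 and 19.4 CPM in DMSO and at 17.7 and 14.3 CPM in Dox. Both were below DMSO in both Dox libraries, with log2 fold changes of -0.37 (SE 0.12, adjusted p = 0.0532) for RING1 and -0.34 (SE 0.12, adjusted p = 0.0838) for RNF2, neither of which passed. The replicate that was lower differed: Dox replicate 1 for RING1 and Dox replicate 2 for RNF2. Without Dox replicate 1 the log2 fold changes of RING1 and RNF2 were -0.25 and -0.52. Without Dox replicate 2 they were -0.53 and -0.20. With the GC offsets both fell (adjusted p = 0.00216 and 0.00898). The ratio of RING1 to RNF2 in CPM per kilobase was 1.97 and 2.24 in DMSO and 1.67 and 2.53 in Dox, so the Dox range enclosed the DMSO range.

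PCGF2, which can take the place of BMI1 in PRC1, rose from 5.22 and 4.42 CPM to 8.18 and 7.12 CPM, a log2 fold change of 0.67 (SE 0.15, adjusted p = 0.0180). The pair therefore moved in opposite directions in CPM. BMI1 exceeded PCGF2 in CPM per kilobase by a ratio of 4.37 and 5.07 in DMSO and of 2.30 and 2.48 in Dox. BMI1 was still the higher of the pair in every library. CPM per kilobase uses 1 mean length per gene for all libraries. The mean transcript length of PCGF2 was 1341 and 1326 bases in DMSO and 1802 and 1656 bases in Dox. Its TPM was 1.27 and 1.12 in DMSO and 1.26 and 1.93 in Dox, which overlap. The part of length in the PCGF2 values was not tested. The PCGF2 call was lost without DMSO replicate 2.

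**Figure D2:**
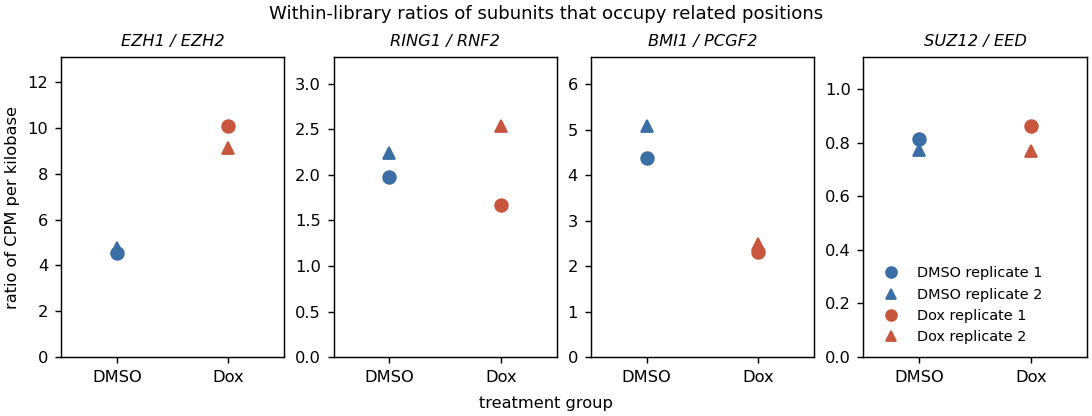
Ratios of CPM per kilobase between subunits that can take or share a place in a complex, 1 point for each library, each axis starting at 0. EZH1 over EZH2 is higher in both Dox libraries (10.1 and 9.13 against 4.55 and 4.76) and BMI1 over PCGF2 lower (2.30 and 2.48 against 4.37 and 5.07), while RING1 over RNF2 and SUZ12 over EED overlap.

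The CBX proteins bind H3 methylated on lysine 27. CBX2 (chromosome 17, 79778132 to 79787983, plus strand) was the least abundant of the 10, at 0.911 and 1.05 CPM in DMSO and at 0.304 and 0.419 CPM in Dox. Both Dox values were below both DMSO values. The log2 fold change was -1.43 (SE 0.29, adjusted p = 0.0138), the largest in size of the 10 and the least precise. It rested on 38 and 49 counts against 13 and 19, and the scaled ratio of summed counts was 0.370 (exact 95% interval 0.239 to 0.561, counting error only). It did not pass in DESeq2 (adjusted p = 0.0618) or without DMSO replicate 2, where the log2 fold change was -1.33. Nor did it pass in limma on log2(TPM + 1) and log2(TPM + 0.1) (adjusted p = 0.812 and 0.536).

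CBX8 (chromosome 17, 79792132 to 79801683, minus strand), which lies next to CBX2, was at 4.03 and 4.42 CPM in DMSO and at 2.85 and 3.88 CPM in Dox. Its log2 fold change of -0.33 (SE 0.19, adjusted p = 0.239) did not pass, and the lower value was again Dox replicate 1. The fall of CBX2 was therefore not matched in size by CBX8, though the difference between the genes was not tested. CBX7 (chromosome 22, 39120167 to 39152674, minus strand), known for extending the life span of fibroblasts by silencing the INK4 locus, was at 10.4 and 9.85 CPM in DMSO and at 10.7 and 12.1 CPM in Dox, a log2 fold change of 0.17 (SE 0.11, adjusted p = 0.286). CBX6, also on chromosome 22 (38861450 to 38872314), was at 75.7 and 74.9 CPM in DMSO and at 78.1 and 94.0 CPM in Dox, a log2 fold change of 0.19 (SE 0.10, adjusted p = 0.201). CBX6 was called higher with GC offsets (adjusted p = 0.0113) and without Dox replicate 1 (0.31, adjusted p = 3.3e-13), and stood at 0.05 without Dox replicate 2 (adjusted p over all alternatives 3.3e-13 to 1).

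As shares of the summed CPM per kilobase of these 4 CBX genes, CBX6 made up 72.0% and 72.0% in DMSO and 74.4% and 74.7% in Dox. CBX7 followed with 20.01% and 19.1% against 20.5% and 19.4%, which overlap. CBX8 took 6.53% and 7.24% against 4.64% and 5.26%. CBX2 took 1.44% and 1.68% against 0.483% and 0.555%. CBX2 was thus the rarest of the 4 in both groups, and the order of the 4 was the same in all 4 libraries.

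On the scale of CPM per kilobase, the order of the 10 genes in DMSO ran from BMI1 (16.9 ± 0.223, SD, n = 2) through RING1, EZH1, EED, SUZ12, RNF2, CBX7, EZH2 and CBX8 to CBX2 (0.289 ± 0.0281, SD, n = 2). Only SUZ12 and RNF2 overlapped with their neighbour in that order. In Dox it ran from BMI1 (13.6 ± 0.598, SD, n = 2) to CBX2 (0.107 ± 0.0240, SD, n = 2), and EZH1 stood above RING1. EZH1 overlapped RING1 there and RING1 overlapped EED, so that exchange lay within the spread. All other neighbours kept their order, and EZH2 stayed eighth, at 2.52 ± 0.0527 in DMSO and 1.27 ± 0.134 in Dox (SD, n = 2).

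The mean transcript length that the authors' quantification assigned to a gene, weighted by its isoforms, gave a readout not used in the tests on counts. Length does enter the tests on TPM. It did not overlap between the groups for 3 of the 10 genes, beside 30.7% of all genes tested. For EZH2 it was 2887 and 2723 bases in DMSO and 2605 and 2507 bases in Dox. For EZH1 it was 3264 and 3122 bases against 3010 and 3046, and for SUZ12 4296 and 4221 bases against 4381 and 4329. In these libraries the assigned length was lower in Dox for both catalytic subunits and higher for SUZ12. A share of 3 in 10 genes is close to the background, so it does not set these genes apart.

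The members differed between the Dox libraries too. The GC-poor SUZ12, RNF2, EED and BMI1 were higher in Dox replicate 1, by 0.37, 0.31, 0.21 and 0.09 on the log2 scale. The GC-rich CBX7, RING1, CBX2 and CBX8 were lower there, with log2 ratios of -0.19, -0.29, -0.36 and -0.43. Between them in GC, EZH1 (48.7%) was at -0.08, and EZH2 (44.6%) at -0.21, further down than EZH1 despite its lower GC. The part of base composition in these ratios was not tested. The fitted change between treatments followed GC far less over all genes (rho = -0.03). With GC offsets 5 of the 10 were called lower (BMI1, CBX2, EZH2, RING1 and RNF2) and 2 higher (EED and SUZ12). The shares over all genes were then 21.4% lower and 25.0% higher. Without Dox replicate 1, 5 were lower and CBX7 was higher, and without Dox replicate 2, 6 were lower and 2 higher. Over all genes tested in these fits the shares rose as well, to 26.7% lower and 26.0% higher without Dox replicate 1 and to 29.1% lower and 27% higher without Dox replicate 2. Without DMSO replicate 1, 2 were lower and none higher (6.23% and 8.62% of all genes), and without DMSO replicate 2, 1 was lower and none higher (5.73% and 7.83%). The calls on SUZ12, EED, CBX7 and CBX8 therefore depended on which libraries were used or on the treatment of GC. Those on RING1 and RNF2 depended on these too, and both genes also passed without the filter and with the replicate block. RING1 passed as well with RLE or upper-quartile factors and with protein-coding genes alone. The call on BMI1 depended on the DMSO libraries. The call on CBX2 depended on DMSO replicate 2 and was lost with DESeq2.

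**Figure D3:**
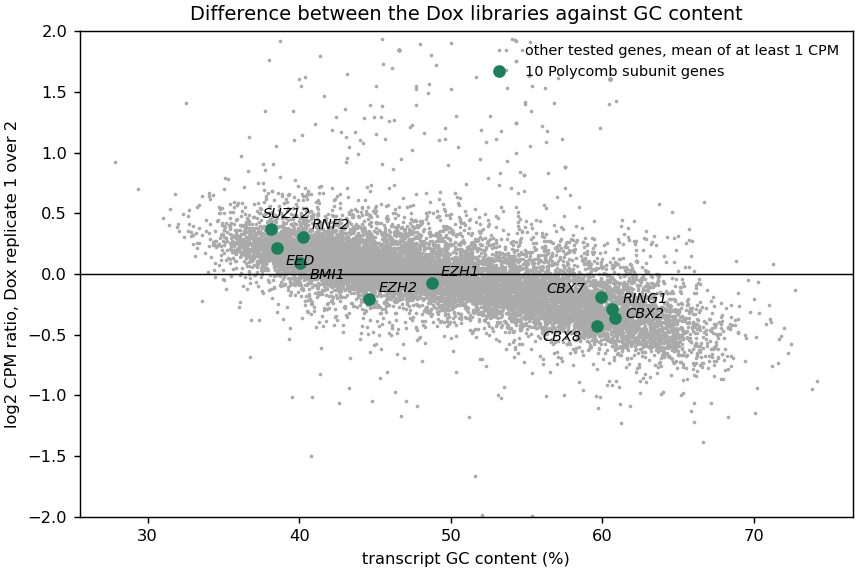
Log2 ratio of CPM in Dox replicate 1 over Dox replicate 2 (after adding 0.1 CPM) against transcript GC content, for the 10 subunit genes (green) and the other tested genes that averaged 1 CPM or more (grey); the 22 genes with a ratio beyond 2 in size are not shown. The other genes slope downward, and the members run from SUZ12 at 0.37 to CBX8 at -0.43, with EZH2 at -0.21.

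**Figure D4:**
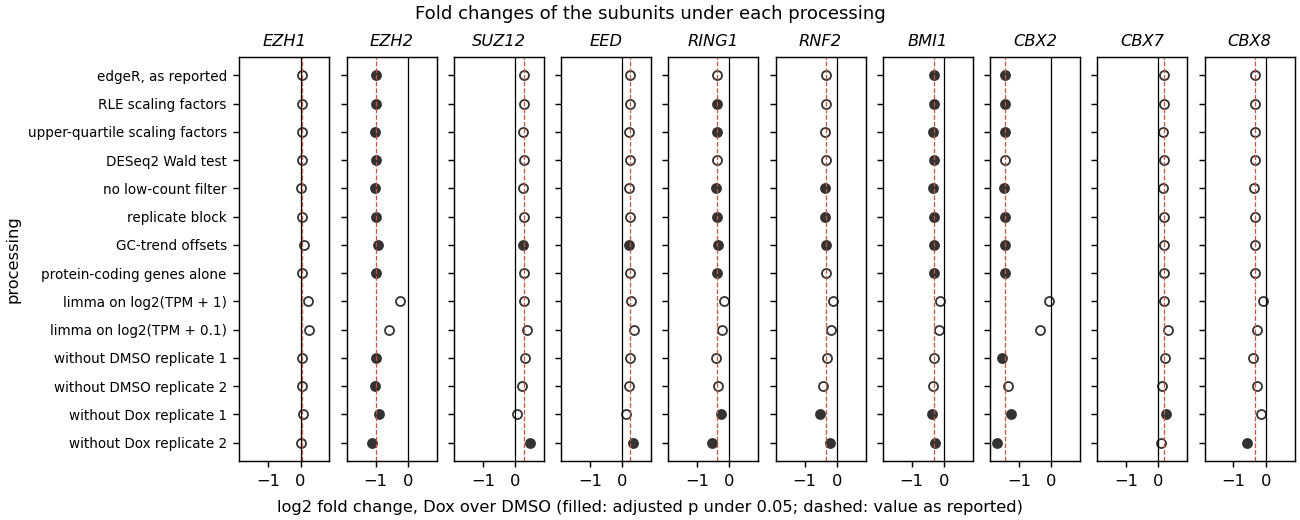
Log2 fold change of each subunit gene under 14 ways of processing, that reported and 13 alternatives, with filled points where the adjusted p was under 0.05. EZH2 is filled in all rows but the 2 on TPM, EZH1 in none, and RING1 and RNF2 are filled in some.

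The other genes of the Polycomb system were taken as 5 lists of 51 genes in all, of which 49 were tested: 15 rose, 7 fell and 27 missed the threshold, with a median log2 fold change of 0.15. The shares over all genes tested, 16.5% higher and 13.8% lower, are the background for these and the following counts, and 7 of 49 lower is near it. On both TPM scales none of the 49 was called in either direction. Of 9 tested PRC2 histone-binding and accessory subunits 1 rose, 2 fell and 6 did not pass (median -0.14). At an unadjusted p under 0.05, 2 of these were higher and 4 lower, beside 22.5% and 20.1% of all genes. DESeq2 called 1 higher and 2 lower. RBBP7, a histone-binding protein shared with other chromatin complexes, fell from 68.0 and 67.9 CPM to 45.2 and 43.7 CPM (log2 fold change -0.61, SE 0.07, adjusted p = 0.00156). PHF19, a Polycomb-like protein that recruits PRC2, fell from 11.7 and 11.3 CPM to 5.66 and 6.88 CPM (log2 fold change -0.87, SE 0.13, adjusted p = 0.00441). Its relative PHF1 rose from 14.1 and 12.7 CPM to 19.9 and 21.4 CPM (log2 fold change 0.62, SE 0.10, adjusted p = 0.00569). The Polycomb-like proteins, which tether PRC2 to DNA, thus included a gene that fell with EZH2 and one that rose. EZHIP, an inhibitor of PRC2, was listed at 0 in all 4 libraries.

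Of 7 other canonical PRC1 genes only PCGF2 rose, none fell and 6 did not pass (median 0.15; at an unadjusted p under 0.05, PHC1, SCMH1 and SCML2 were lower and PCGF2 and PHC3 higher, and DESeq2 called 2 higher and none lower). Of 16 genes of variant PRC1, the forms without CBX proteins, 3 rose, 5 fell and 8 did not pass (median -0.12). PCGF6 fell by 0.85 (SE 0.12, adjusted p = 0.00326) and PCGF3 by 0.41 (SE 0.07, adjusted p = 0.00870) on the log2 scale, both of them being relatives of BMI1 that define a variant complex each. FBRS, a partner of the PCGF3 and PCGF5 complexes, rose by 0.75 (SE 0.10, adjusted p = 0.00298), and BCORL1, a corepressor of the PCGF1 complex, by 0.67 (SE 0.11, adjusted p = 0.00726). The others past the threshold, named after their values were seen as were the PHC and SCM genes above, were FBRSL1, which rose, and E2F6, RYBP and PCGF1, which fell.

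Demethylases and Trithorax proteins oppose Polycomb. Of 8 H3K27 demethylase and Trithorax genes 6 rose, none fell and 2 did not pass (median 0.53). None was lower at an unadjusted p under 0.05, and DESeq2 called 6 higher and none lower. KDM6B, a demethylase of H3 lysine 27, rose from 6.69 and 6.21 CPM to 11.9 and 12.2 CPM. Its log2 fold change was 0.91 (SE 0.10, adjusted p = 0.00176). The mean transcript length assigned to KDM6B was 2862 and 3294 bases in DMSO and 4230 and 4980 bases in Dox. Its TPM was 0.7 and 0.57 in DMSO and 0.73 and 1.01 in Dox. The part of length in the counts of KDM6B was not tested. KDM6A, its X-linked relative, was at 16.2 and 17.1 CPM against 19.9 and 17.9 CPM, and was not called (log2 fold change 0.18, SE 0.10, adjusted p = 0.206). It was called higher with GC offsets (adjusted p = 0.0242) and without Dox replicate 2 (0.25, adjusted p = 0.00095), and stood at 0.09 without Dox replicate 1 (adjusted p over all alternatives 0.00095 to 1). The H3 lysine 4 methyltransferase genes KMT2D, KMT2A and KMT2C rose by 0.81, 0.70 and 0.41 on the log2 scale (adjusted p = 0.000897, 0.00242 and 0.0125). As for KDM6B, mean length was higher in both Dox libraries for KMT2B, KMT2C, KMT2D and ASH1L. It overlapped between the groups for the rest of this list. Over all genes tested, mean length did not overlap in 30.7%, in either direction. KMT2A, KMT2C and ASH1L here, and 5 further tested genes of the 5 lists (LCOR, PHC3, MGA, ASXL2 and FOXK1), have mean transcript lengths of at least 8000 bases, a limit set after these genes were seen. Of these 8 genes 5 were called higher. Of all 404 tested genes that long, 40.6% were called higher and 11.9% lower (median 0.25), and the part of length in these genes' values was not tested.

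Of 9 tested genes for H2A deubiquitinases and the partners of BAP1, which remove the mark of PRC1, 4 rose, none fell and 5 did not pass (median 0.36). At an unadjusted p under 0.05, BAP1 itself was lower (log2 fold change -0.33), and DESeq2 called 5 higher and none lower. MBD6, a partner of BAP1, rose by 0.87 (SE 0.18, adjusted p = 0.0140) and MYSM1, an H2A deubiquitinase, by 0.56 (SE 0.14, adjusted p = 0.0251) on the log2 scale. ASXL2 and FOXK1, further partners of BAP1 with long transcripts, rose by 0.36 and 0.39 (adjusted p = 0.0179 and 0.0287). Leaving out DMSO replicate 2 alone ended the calls on MBD6, MYSM1, PHF1, PCGF2 and KMT2B. Leaving out either DMSO library ended those on ASXL2, FOXK1, KMT2C, ASH1L, BCORL1, PCGF3, FBRSL1, E2F6, RYBP and PCGF1, and PCGF1 was also lost with DESeq2 and with the replicate block. Over the 5 lists 9 and 4 genes rose without DMSO replicate 1 and 2, and 24 and 25 without Dox replicate 1 and 2.

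**Figure D5:**
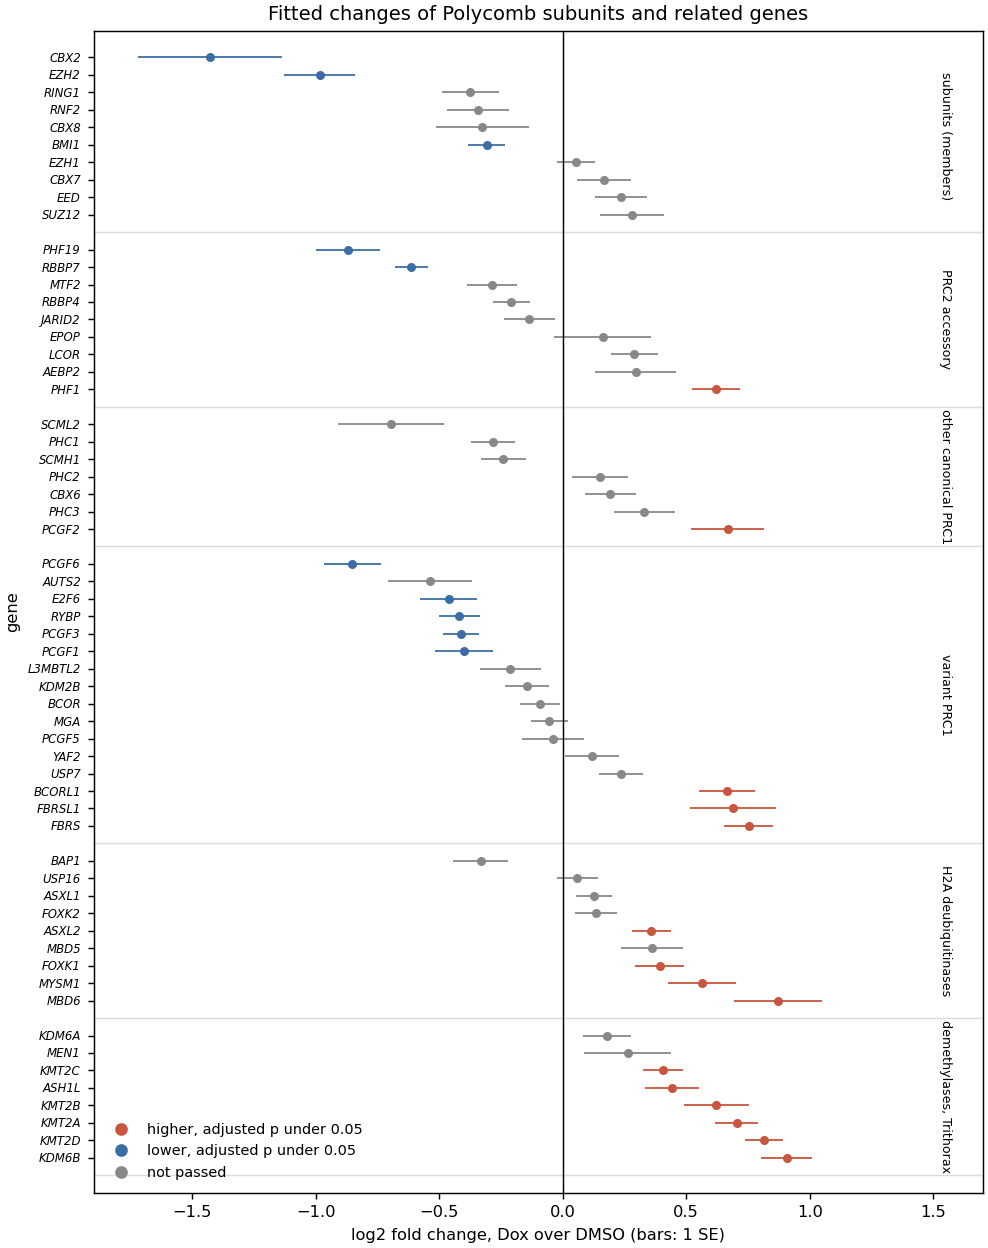
Log2 fold change (Dox over DMSO) with bars of 1 SE for the 10 subunit genes and the 5 lists of related genes, coloured by the adjusted p of edgeR's quasi-likelihood test. Blue points (lower) include EZH2, CBX2, BMI1, PHF19 and RBBP7, and all 8 points of the demethylase and Trithorax list lie to the right of 0.

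The INK4 locus, a known target of the complexes, held 3 tested transcripts, of which 1 fell, none rose and 2 did not pass; at an unadjusted p under 0.05, and by DESeq2, 1 was lower and none higher. CDKN2A, which encodes p16 and p14ARF, was at 2.37 and 2.22 CPM in DMSO and at 1.73 and 2.25 CPM in Dox, which overlap (log2 fold change -0.20, SE 0.20, adjusted p = 0.472). Counts per gene do not separate its products. CDKN2B, which encodes p15, fell from 15.7 and 16.96 CPM to 9.33 and 10.0 CPM (log2 fold change -0.76, SE 0.10, adjusted p = 0.00292). The antisense RNA CDKN2B-AS1 was at 4.12 and 3.92 CPM against 3.58 and 2.87 CPM (log2 fold change -0.32, SE 0.17, adjusted p = 0.195). It was called lower without Dox replicate 1 (-0.50, adjusted p = 0.0059, over all alternatives 0.0059 to 1), and stood at -0.17 without Dox replicate 2. Lower EZH2, CBX2 and BMI1 transcripts thus stood beside no rise of these INK4 transcripts. Strand-specific counting is not stated, so CDKN2B-AS1 and the genes it overlaps may share reads.

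Genes of dividing cells fell as well. Of 14 proliferation markers and E2F targets 13 fell, none rose and E2F1 did not pass (median -1.28); at an unadjusted p under 0.05 all 14 were lower and none higher, and DESeq2 called 12 lower and none higher. MKI67, a marker of cycling cells, was at 22.9 and 20.8 CPM in DMSO and at 9.77 and 8.33 CPM in Dox (log2 fold change -1.27, SE 0.12, adjusted p = 0.000782). TOP2A, CDK1, CCNA2 and CCNB1 fell by 1.40, 1.86, 1.77 and 1.25 on the log2 scale. CDK1 and CCNA2 also passed on both TPM scales, where MKI67, TOP2A, CCNB1 and CDKN2B did not. E2F1, itself an E2F target, was at 2.42 and 2.97 CPM against 1.78 and 2.12 CPM (log2 fold change -0.47, SE 0.19, adjusted p = 0.116). Without Dox replicate 2 its log2 fold change was -0.61. The ratio of EZH2 to MKI67 in CPM per kilobase was 1.15 and 1.23 in DMSO and 1.24 and 1.69 in Dox. EZH2 was thus no lower relative to MKI67 in Dox, but this did not hold for every gene of the list. The log2 fold change of EZH2, -0.98, was larger in size than those of E2F1 (-0.47), UHRF1 (-0.69), MCM2 (-0.84) and MCM5 (-0.87). It was smaller in size than those of the other genes among the 14. UHRF1, MCM2 and MCM5 were singled out with the results in view, and differences between genes were not tested. The part of fewer dividing cells in the fall of EZH2 was not tested.

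The libraries held 42744724 to 47798919 counts each, so that 1 count was worth 0.0209 to 0.0234 CPM before TMM scaling, and no member held fewer than 13 counts in any library. All 10 fibroblast markers were detected, with a summed level of 28255 to 28682 CPM in DMSO and 20728 to 25363 CPM in Dox (4 higher, 3 lower, 3 not passed). The 5 keratinocyte markers summed to 10.2 to 10.3 CPM and 10.9 to 12.6 CPM, with KRT5 and KRT1 at 0. Nearly all of this was KRT10 (9.85 and 9.94 CPM in DMSO, 12.3 and 10.6 CPM in Dox), picked out with the values in view. The 4 endothelial markers summed to 0.0958 to 0.171 CPM and 0.561 to 0.595 CPM, and the 4 melanocyte markers to 0.299 to 0.312 CPM and 0.281 to 0.441 CPM. The 4 immune markers summed to 5.80 to 6.25 CPM in DMSO and 26.1 to 28.1 CPM in Dox, nearly all of it CD68, a lysosomal protein also made outside the immune system, with CD3E at 0. CD68 and PTPRC rose, the latter from 0.216 and 0.235 CPM to 2.10 and 1.83 CPM. Both were named after their values were seen, and their part in the members' values was not tested.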

How the data were processed

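Total RNA was sequenced in 2 DMSO and 2 Dox libraries, and groups follow the sample titles. The labels do not say whether replicates were separate cultures, so p-values measure only how these libraries spread, which may be technical. The series design puts the 24 hours of treatment before the 10 days, and the sample protocol can be read in the reverse order. The submitters' processing notes name cutadapt, STAR, Picard, RSEM and hg38, and neither versions nor the annotation release were found in the labels or headers. The deposited expected counts are estimated reads per gene, per the file headers, and need not be whole. The deposited TPM and effective lengths are named so per the file headers. The deposited FPKM values, per the file headers, were not used.

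Expected counts were rounded. Genes were filtered with edgeR's filterByExpr (minimum count 10, minimum total 15), scaled by TMM and tested by glmQLFit and glmQLFTest on group alone, with Benjamini-Hochberg adjustment over 16749 genes and a threshold of 0.05. The SE is the log2 fold change divided by the square root of F. CPM per kilobase is CPM divided by the mean effective length over the 4 libraries. Identifiers were matched to GENCODE 29 (GRCh38) without their version (99.5% matched), which gave coordinates (1-based) and GC content pooled over a gene's transcripts. A chi-square of the counts of 2 replicates, per degree of freedom, came to 2.40 in DMSO and 60.5 in Dox, above sampling noise in both. The 13 alternatives were other scalings, DESeq2, no filter, the replicate number as a block, GC offsets (lowess span 0.3), protein-coding genes alone, limma on log2(TPM + 1) and log2(TPM + 0.1), and leaving out each library. The code was tested on simulated data. Versions were Python 3.11.15, R 4.3.3, DESeq2 1.42.0, limma 3.58.1 and edgeR 4.0.16.

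The members and lists were chosen with earlier results of these data known, and the promoter motifs after the files had been read. Named genes were the 10 members, at most the 4 genes of each other list with the smallest adjusted p past the threshold, and PCGF2, CBX6, RBBP7, KDM6A, KDM6B, CDKN2A, CDKN2B, CDKN2B-AS1, MKI67 and E2F1. One further gene of the rule and of the canonical PRC1 list is not reported here.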

Additional observations from a re-analysis of the deposited data

How the results depend on the processing

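The count of subunit genes called lower, 3 as reported, was 4 with RLE or upper-quartile factors or protein-coding genes alone, 2 with DESeq2, 5 without the low-count filter, 5 with GC offsets, and 0 and 0 on log2(TPM + 1) and log2(TPM + 0.1). Leaving out 1 library gave 1 to 6. The count called higher, 0 as reported, was 2 with GC offsets and 0 to 2 without 1 library. For the other Polycomb genes, 15 higher became 23 with GC offsets, 0 and 0 on the TPM scales and 4 to 25 without 1 library, and 7 lower became 11 without the filter, 13 with GC offsets, 0 and 0 on the TPM scales and 3 to 16 without 1 library. Over all genes, 2764 higher became 4181 with GC offsets, 596 and 637 on the TPM scales with pseudocounts 1 and 0.1, and 1368 to 4654 without 1 library. The 2309 lower became 3577, 198 and 198, and 1000 to 5017. With RLE and upper-quartile factors, 2770 and 2596 genes were higher and 2292 and 2481 lower. Among protein-coding genes alone, 2588 were higher and 2341 lower. Without the filter, where more genes were tested, 3351 were higher and 3058 lower. A fit without 1 library assumes that the lone sample of its group varies like the other group. The log2 fold change of CDKN2A turned to 0.0180 on log2(TPM + 1). The cause of these changes was not tested. Of the members' 130 alternative fits, 101 stayed on the same side of the threshold in the same direction, 19 gained a call and 10 lost one.

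With the replicate number as a block, 5 subunit genes were called lower (BMI1, CBX2, EZH2, RING1 and RNF2) and 0 higher. The same-numbered libraries are not stated to be paired, and their deviations from the group means correlated at only 0.04 over genes. The difference between the Dox libraries followed GC content (Spearman rho -0.598), whereas that between the DMSO libraries hardly did (-0.0239). A low correlation therefore cannot decide whether the libraries were paired, and no conclusion on pairing is drawn. Precision is limited by 2 libraries a group and, for CBX2, by 13 to 49 counts a library.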
